A study of Homo sapiens with 12 samples.

Results

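The genes described here are 10 genes of the integrated stress response, selected by gene symbol from the 58735 genes counted: the transcription factor ATF4, the factors ATF3 and DDIT3, the stress effectors TRIB3, CHAC1 and DDIT4, and the amino acid and one-carbon enzymes PHGDH, PSAT1, SHMT2 and ASNS. All 10 were among the 18560 genes with enough counts to be tested. RNA came from LX-2, an immortalised line of human hepatic stellate cells that stands in for the matrix-producing cell of the fibrotic liver, in 12 libraries that form 4 groups of 3. Cells labelled con received neither agent, TGFB cells received recombinant human TGF-β1 at 5 ng/ml for 24 h, SiNAT10 cells were transfected with siRNA against NAT10 using Lipofectamine 2000, and SiNAT10_TGFB cells were transfected and, 48 h later, given TGF-β1 at the same dose and duration. All cells carried the label WT and were grown in medium with fetal bovine serum. No group is labelled as given a control siRNA, so transfection and NAT10 knockdown cannot be told apart, and for SiNAT10 cells not given TGF-β1 the sources used here state no harvest time. The libraries of a group are called biological replicates with no separate cultures named, so the p-values rest on the spread between libraries, which may be technical.

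The integrated stress response starts when a stress-activated kinase phosphorylates the initiation factor eIF2. General translation then falls, while translation of the ATF4 mRNA rises through upstream open reading frames, and ATF4 protein switches on genes for amino acid supply, redox balance and, under lasting stress, cell death. Much of the regulation of ATF4 therefore takes place on protein, which RNA counts do not measure. NAT10 encodes a nucleolar enzyme that acetylates cytidines of ribosomal, transfer and messenger RNA.

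Many ATF4 targets carry a composite C/EBP-ATF element whose core is TGATGNAA. This core was searched on both strands of RefSeq promoter windows on GRCh38.p14, each of 300 bases, from 250 before to 50 after an annotated start. It occurred in 1270 of 35116 windows (3.62%), and in 3 of the 15 windows that belonged to the genes studied, of which 9 had a window and SHMT2 had none. The 3 matches to this core lay in windows of ATF3, CHAC1 and ASNS, and whether ATF4 binds them was not tested. They are shown with the match in capitals and 30 bases printed in the direction of the gene.
ATF3, chr1:212565205-212565234, plus strand: aaaggtcaggaTGATGGAAggctgtcatat
CHAC1, chr15:40953251-40953280, plus strand: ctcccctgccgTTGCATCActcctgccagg
ASNS, chr7:97872458-97872487, minus strand: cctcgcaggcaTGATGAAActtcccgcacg
Counted from the RefSeq start of the window, the match lay 191 bases upstream in ATF3, 68 in ASNS and 209 in CHAC1, where it reads on the strand opposite to the gene. GENCODE release 29 has starts upstream of the match for CHAC1 and ASNS. There all 30 printed bases lie in exons, in the untranslated part, of the gene itself. The GENCODE start of ATF3 lies downstream of its match, and 0 of the 30 bases lie in its exons. The other windows held no match to these letters, and nothing follows from that about binding of ATF4 to them.

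Totals ran from 29797990 to 35132582 counts in the 6 libraries without siRNA and from 25877008 to 28311434 in the 6 siRNA libraries. NAT10 fell by 1.85 (SE 0.087) on the log2 scale in SiNAT10 against con and by 1.85 (SE 0.088) in SiNAT10_TGFB against TGFB, so its levels matched the labels. The stellate cell markers VIM and COL1A1 were abundant, at 155 FPKM or more and 78.3 FPKM or more in every library, whereas LRAT, which stores retinoid in quiescent stellate cells, had 0 counts in all 12. Of 14 stellate markers, 6 to 8 reached 1 FPKM, and their summed level ran from 568 to 588 FPKM in con, 1060 to 1110 in TGFB, 258 to 266 in SiNAT10 and 303 to 331 in SiNAT10_TGFB. Hepatocyte markers summed to 3.1 to 3.87, 2.79 to 3.06, 4.73 to 5.17 and 5.1 to 5.82 FPKM in the same order, with 1 of 7, SERPINA1, at 1 FPKM or more and TTR at 0 in every library. Cholangiocyte markers summed to 10.6 to 12 FPKM in con, 10.4 to 11.2 in TGFB, 16.8 to 18.8 in SiNAT10 and 10.4 to 11.1 in SiNAT10_TGFB, nearly all of it SOX9. The part of these markers in the results was not tested.

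Levels between genes were compared in FPKM, which is scaled by gene length. In con, ATF4 stood first at 79.2 ± 1.30 FPKM (SD, n = 3), rank 384 of 19951 protein-coding genes, followed by SHMT2 at 40.1 ± 1.78 and PSAT1 at 36.4 ± 2.22. The libraries of SHMT2, from 38.1 to 41.5 FPKM, and of PSAT1, from 34.5 to 38.8 FPKM, overlapped. PHGDH (16.8 ± 1.31), TRIB3 (11.04 ± 1.09) and DDIT3 (6.87 ± 0.358) came next, each apart from its neighbours in FPKM. DDIT4 (4.79 ± 0.753), ATF3 (4.32 ± 0.202) and CHAC1 (4.01 ± 0.394) had overlapping libraries and could not be ordered. Opposite-strand genes cover 31.6% of the exon bases of DDIT3, 41.2% for DDIT4 and 9.5% for SHMT2, and 0% for ATF3, CHAC1 and TRIB3. How such bases were counted is not stated, so the places of DDIT3, DDIT4 and SHMT2 are less certain. ASNS was last, at 0.227 ± 0.0406 FPKM, a value not read here as its mRNA level because most of its coding bases are shared with another annotated gene. Between the lowest and highest group mean in library-scaled counts (CPM, with TMM factors), DDIT3 spanned 4.29-fold and ATF3 3.71-fold, DDIT4, CHAC1, TRIB3 and ATF4 from 1.59-fold to 1.94-fold, and PSAT1, SHMT2 and PHGDH from 1.22-fold to 1.36-fold.

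**Figure D1:**
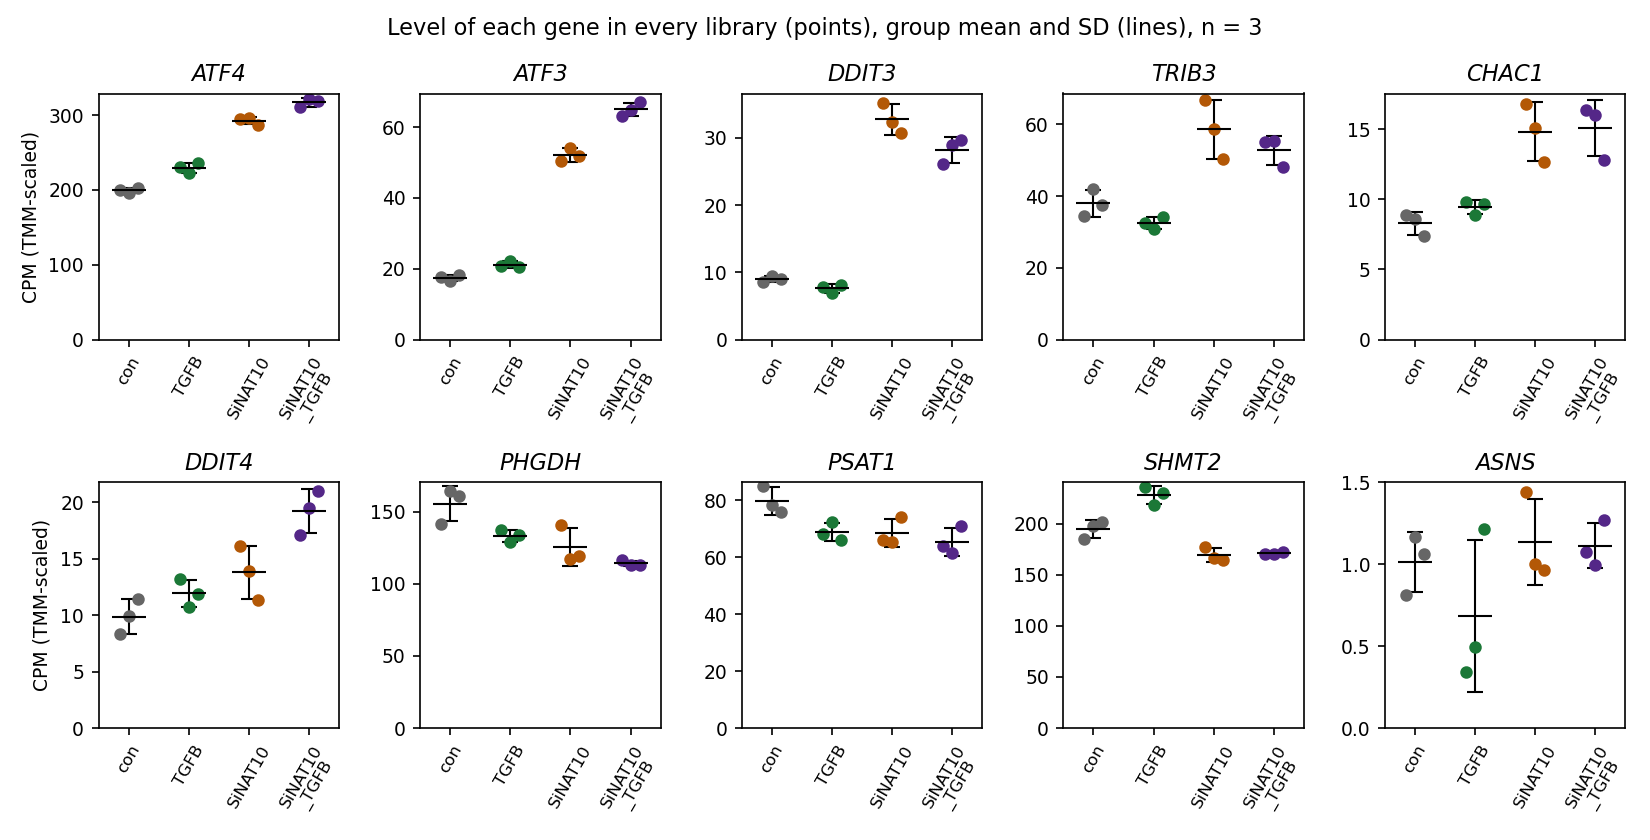
CPM of each gene on a linear axis from 0, with 1 point per library, a horizontal line for the group mean and bars of 1 SD (n = 3). ATF4, ATF3, DDIT3, TRIB3 and CHAC1 lie higher in all 6 siRNA libraries than in any of the 6 others, SHMT2 lies lower in the siRNA libraries, and ASNS stays under 1.5 CPM. The share of all genes that separate in this way is not given here. Of all genes tested, 52.8% were called in SiNAT10 against con and 53.1% in SiNAT10_TGFB against TGFB.

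ATF4 (ENSG00000128272; hg38 chromosome 22, 39519695 to 39522685), the transcription factor at the centre of the response, stood at 199, 196 and 203 CPM in con and at 230.4, 222 and 236 CPM in TGFB. It stood at 295, 296 and 287 CPM in SiNAT10 and at 311, 322 and 319 CPM in SiNAT10_TGFB. The 4 groups did not overlap, and the siRNA groups were the higher ones. The step from SiNAT10 to SiNAT10_TGFB was not called (0.11, edgeR adjusted p = 0.187). Statements that libraries do not overlap, here and for the other genes, describe those libraries only. The share of all genes that separate likewise is not given. ATF4 rose by 0.55 (SE 0.052, 1.47-fold, edgeR adjusted p = 4.81e-09) in SiNAT10 against con and by 0.47 (SE 0.051, 1.38-fold, edgeR adjusted p = 6.5e-08) in SiNAT10_TGFB against TGFB. Among all genes tested, these changes lay at percentiles 80.6 and 77.4. In these bulk samples, more RNA per cell and more cells with the RNA cannot be told apart, here and for the other genes. The 4 processed copies of ATF4 were counted apart from it and reached at most 21 counts in a library, against 5888 or more for ATF4 in con.

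ATF3 (ENSG00000162772; chromosome 1, 212565334 to 212620777), a stress-induced factor of the same family, stood at 17.8, 16.6 and 18.1 CPM in con and at 20.7, 22.2 and 20.6 CPM in TGFB. It reached 50.4, 54.2 and 51.7 CPM in SiNAT10 and 63.0, 64.9 and 67.0 CPM in SiNAT10_TGFB. Again none of the groups overlapped, and the siRNA libraries were the higher ones. ATF3 rose by 1.57 (SE 0.076, 2.97-fold, edgeR adjusted p = 6.92e-14) with siRNA alone and by 1.62 (SE 0.075, 3.07-fold, edgeR adjusted p = 2.51e-14) with siRNA under TGF-β1.

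DDIT3 (ENSG00000175197; chromosome 12, 57516588 to 57521737), which encodes CHOP, the factor tied to cell death under lasting stress, changed most. It stood at 8.57, 9.50 and 8.96 CPM in con and at 7.87, 6.90 and 8.10 CPM in TGFB. It stood at 35.2, 32.4 and 30.6 CPM in SiNAT10 and at 26.1, 28.9 and 29.6 CPM in SiNAT10_TGFB. The lowest siRNA library, at 26.1 CPM, stood above the highest library without siRNA, at 9.50 CPM. DDIT3 rose by 1.86 (SE 0.10, 3.63-fold, edgeR adjusted p = 3.88e-13) in SiNAT10 against con and by 1.89 (SE 0.10, 3.7-fold, edgeR adjusted p = 3.44e-13) in SiNAT10_TGFB against TGFB, at percentiles 96.6 and 96.8 of all genes. Other annotated genes cover 31.6% of its exon bases on the opposite strand and 8.0% on the same strand. Same-strand genes cover 0.0% of its coding bases. The sources used here do not state whether the counting used strand, and genes lying wholly inside opposite-strand exons of a gene with a mean of at least 1000 counts were at 0 in every library in 247 of 247 cases.

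The stress effectors TRIB3, CHAC1 and DDIT4 also rose with siRNA, less than ATF3 and DDIT3. TRIB3 (ENSG00000101255; chromosome 20, 362835 to 397559), a pseudokinase induced by ATF4 and CHOP that restrains both ATF4 and AKT, stood at 34.6, 42.0 and 37.4 CPM in con and at 66.8, 58.7 and 50.4 CPM in SiNAT10. It stood at 32.5, 30.8 and 34.2 CPM in TGFB and at 55.0, 55.3 and 48.1 CPM in SiNAT10_TGFB. The siRNA libraries lay above the untransfected ones in both pairs. TRIB3 rose by 0.63 (SE 0.095, edgeR adjusted p = 6.7e-06) in the former pair of groups and by 0.7 (SE 0.096, edgeR adjusted p = 1.57e-06) in the latter.

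CHAC1 (ENSG00000128965; chromosome 15, 40952962 to 40956519), which degrades glutathione, stood at 8.89, 8.60 and 7.37 CPM in con and at 16.8, 15.1 and 12.6 CPM in SiNAT10. It stood at 9.82, 8.88 and 9.65 CPM in TGFB and at 16.4, 16.05 and 12.8 CPM in SiNAT10_TGFB. No siRNA library reached down into the untransfected range. CHAC1 rose by 0.84 (SE 0.13, edgeR adjusted p = 7.89e-06) and by 0.68 (SE 0.13, edgeR adjusted p = 0.000102) with siRNA in the absence and presence of TGF-β1.

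DDIT4 (ENSG00000168209; chromosome 10, 72273920 to 72276036), which encodes the mTORC1 inhibitor REDD1 and also responds to hypoxia and p53, stood at 8.31, 9.90 and 11.4 CPM in con and at 16.1, 14.0 and 11.3 CPM in SiNAT10. These libraries overlapped at their edge. It stood at 13.2, 10.7 and 11.9 CPM in TGFB and at 17.1, 19.5 and 21.0 CPM in SiNAT10_TGFB, with no overlap. DDIT4 rose by 0.48 (SE 0.14, edgeR adjusted p = 0.00505) in SiNAT10 against con and by 0.69 (SE 0.13, edgeR adjusted p = 0.00015) in SiNAT10_TGFB against TGFB. An antisense gene, DDIT4-AS1, covers 41.2% of its exon bases and was listed at 0 in every library. Within SiNAT10, replicate 1 was the highest and replicate 3 the lowest library for each of DDIT3, TRIB3, CHAC1 and DDIT4. Over the genes at large these 2 libraries also differed more than any other pair within a group. Their chi-square per degree of freedom was 20.5, against 4.15 to 9.98 for the other pairs. What lies behind the shared order was not tested.

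Of the serine and one-carbon enzymes, PHGDH and SHMT2 fell in both siRNA comparisons and PSAT1 in SiNAT10 against con, by small amounts. PHGDH (ENSG00000092621; chromosome 1, 119648411 to 119744226), the first enzyme of serine synthesis, stood at 142, 164 and 161 CPM in con and at 140.5, 117 and 119 CPM in SiNAT10. It stood at 137, 129 and 134 CPM in TGFB and at 116, 113 and 113 CPM in SiNAT10_TGFB. The siRNA libraries were lower in both pairs, SiNAT10 replicate 1 lying just under con replicate 1. PHGDH fell by 0.31 (SE 0.071, edgeR adjusted p = 0.000783) and by 0.22 (SE 0.071, edgeR adjusted p = 0.0114). The latter call was lost without TGFB replicate 1 (−0.2, adjusted p = 0.0503).

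SHMT2 (ENSG00000182199; chromosome 12, 57229327 to 57234935), the mitochondrial enzyme that splits serine into glycine and a one-carbon unit, stood at 185, 197 and 202 CPM in con and at 177, 166 and 165 CPM in SiNAT10. It stood at 236, 218 and 229.5 CPM in TGFB and at 169.96, 169.96 and 173 CPM in SiNAT10_TGFB. The siRNA libraries lay below the untransfected ones in both pairs, with a wider gap under TGF-β1. SHMT2 fell by 0.2 (SE 0.057, edgeR adjusted p = 0.00469) in SiNAT10 against con and by 0.42 (SE 0.057, edgeR adjusted p = 1.52e-06) in SiNAT10_TGFB against TGFB. The former call ended once each library's trend with GC content was removed.

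PSAT1 (ENSG00000135069; chromosome 9, 78297143 to 78330093), the transaminase that follows PHGDH, stood at 85.2, 78.3 and 75.9 CPM in con and at 65.9, 65.4 and 74.1 CPM in SiNAT10. It stood at 68.2, 72.4 and 65.9 CPM in TGFB and at 63.8, 61.7 and 71.0 CPM in SiNAT10_TGFB. The former pair of groups did not overlap and the latter did. PSAT1 fell by 0.22 (SE 0.074, edgeR adjusted p = 0.0153) in SiNAT10 against con, a call lost without con replicate 1 (−0.17, adjusted p = 0.0835) or SiNAT10 replicate 2 (−0.19, adjusted p = 0.0734). In SiNAT10_TGFB against TGFB its log2 fold change was −0.07 (95% interval −0.23 to 0.08, edgeR adjusted p = 0.443). The 4 PSAT1 copies were counted apart, at 6 counts or fewer in any library.

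ASNS (ENSG00000070669; chromosome 7, 97852118 to 97872542), asparagine synthetase and a textbook ATF4 target, stood at 0.813, 1.17 and 1.06 CPM in con and at 0.340, 0.497 and 1.22 CPM in TGFB. It stood at 1.44, 1.00 and 0.967 CPM in SiNAT10 and at 1.08, 0.998 and 1.27 CPM in SiNAT10_TGFB, where 3 counts correspond to 0.0871 to 0.115 CPM depending on the library. All 4 groups overlapped, and none of its comparisons passed the threshold. In GENCODE release 29, whose gene starts and ends equal those of the file, 96.1% of the coding bases of ASNS and 44.6% of its exon bases also lie in exons of AC079781.5, a gene on the same strand that had 1 to 19 counts. Genes whose exons lie wholly inside same-strand exons of a gene with a mean of at least 1000 counts were at 0 in every library in 300 of 300 cases. How the counting treated shared bases is not stated in the sources used here, and the ASNS count is not used as a measure of its mRNA. Without TGFB replicate 3, its log2 fold change became −1.28 (adjusted p = 0.0371) in TGFB against con and 1.41 (adjusted p = 0.00889) in SiNAT10_TGFB against TGFB.

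**Figure D2:**
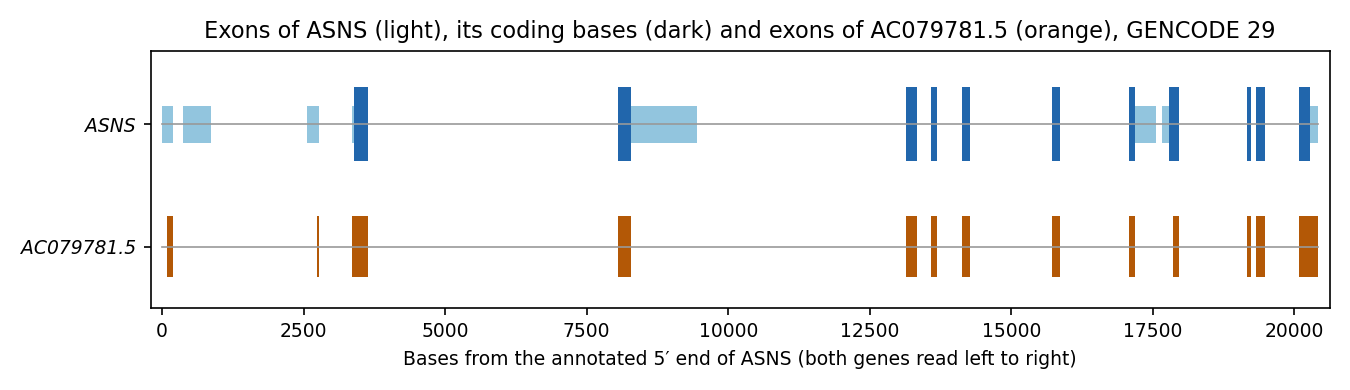
Exons of ASNS and of AC079781.5 by distance in bases from the annotated 5′ end of ASNS, with thin boxes for ASNS exons, tall dark boxes for its coding bases and boxes on the lower line for exons of AC079781.5. The 2 genes share 96.1% of the coding bases of ASNS.

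In SiNAT10 against con, 6 of the 10 genes rose (ATF4, ATF3, DDIT3, TRIB3, CHAC1 and DDIT4), 3 fell (PHGDH, PSAT1 and SHMT2) and ASNS was not called. Of all genes tested, 52.8% were called in this comparison, 26.4% higher and 26.4% lower. The median log2 fold change was 0.52 over the 10 genes and 0.02 over all genes. In SiNAT10_TGFB against TGFB the same 6 rose and 2 fell (PHGDH and SHMT2), where 53.1% of all genes were called, 26.3% higher and 26.8% lower, and the medians were 0.68 and 0.01. With a log2 fold change of at least 1 required as well, ATF3 and DDIT3 were called in both comparisons, against 15.5% and 16.2% of all genes. Without ASNS, an alternative chosen after the data were seen, the counts were the same and the medians were 0.55 and 0.68. With libraries scaled to their size alone, 6 rose and 2 fell in SiNAT10 against con (PSAT1 not called) and 6 rose and 1 fell in SiNAT10_TGFB against TGFB (PHGDH not called), where that scaling shifted the median of all genes by 0.06 and 0.13.

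The siRNA comparisons also differed along GC content. Transcript GC was 62.6% for CHAC1, 60.9% for TRIB3, 58.1% for DDIT4, 57% for SHMT2 and 56.7% for ATF4, and from 42.3% to 52.3% for the other 5. With each library's GC trend removed, the log2 fold changes in SiNAT10 against con were 1.31 for CHAC1, 1.05 for TRIB3 and 0.79 for both DDIT4 and ATF4, each larger than above, and 1.5 for ATF3 and 1.81 for DDIT3. In SiNAT10_TGFB against TGFB they were 1.17 for CHAC1, 1.14 for TRIB3, 1.01 for DDIT4, 0.71 for ATF4, 1.52 for ATF3 and 1.83 for DDIT3. CHAC1 and TRIB3 in both comparisons, and DDIT4 in the latter, thus joined ATF3 and DDIT3 past a log2 fold change of 1. SHMT2 then stood at 0.05 (adjusted p = 0.336) in SiNAT10 against con and still fell by 0.15 (adjusted p = 0.00419) in SiNAT10_TGFB against TGFB. PSAT1 was called lower in both comparisons, at −0.34 and −0.22. All 6 genes that rose stayed called, so the split of higher and lower calls was 6 and 2 in SiNAT10 against con and 6 and 3 in SiNAT10_TGFB against TGFB. The shares of all genes called, or past 1, with the GC trend removed are not given here. These counts therefore have no background to be read against.

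**Figure D3:**
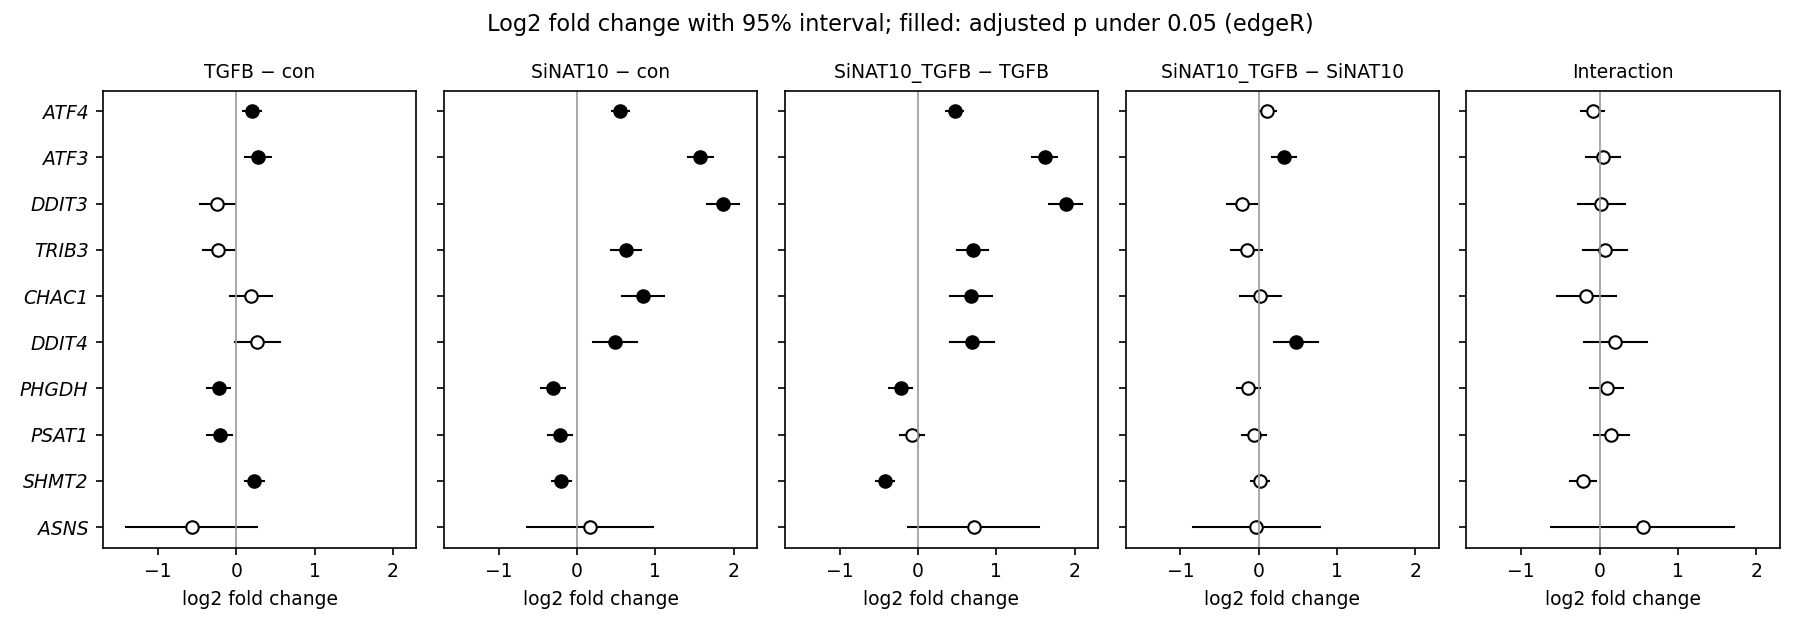
Log2 fold change of each gene in the 4 comparisons of groups and the interaction, with 95% intervals, filled where the edgeR adjusted p is under 0.05. In both siRNA comparisons 6 filled genes lie to the right of 0, DDIT3 farthest at 1.86 and 1.89. ASNS lies there unfilled, at 0.17 and 0.71, and no interaction is filled.

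TGF-β1 moved the same genes little. In TGFB against con, 3 of the 10 rose, ATF3 by 0.28 (SE 0.077, edgeR adjusted p = 0.0106), SHMT2 by 0.23 (SE 0.057, edgeR adjusted p = 0.00405) and ATF4 by 0.2 (SE 0.052, edgeR adjusted p = 0.00534), and 2 fell, PHGDH by 0.22 (SE 0.071, edgeR adjusted p = 0.0225) and PSAT1 by 0.21 (SE 0.074, edgeR adjusted p = 0.0373). Of all genes tested 24.1% were called, 11.9% higher and 12.2% lower. The median was −0.01 for the 10 genes, 0.19 without ASNS, and −0.01 for all genes. DDIT3 (−0.24, adjusted p = 0.108) and TRIB3 (−0.23, adjusted p = 0.0963) were lower in every TGFB library than in any con library but were not called, TRIB3 staying uncalled under 15 of 21 alternatives. DDIT4 (0.27, 95% interval −0.01 to 0.56) and CHAC1 (0.19, −0.08 to 0.46) were not called either. Scaling to library size alone, which shifts the median of all genes by −0.14 here, turned the split into 0 higher and 4 lower: ATF4 stood at 0.07, ATF3 at 0.14 and SHMT2 at 0.09, uncalled, and DDIT3 at −0.38 and TRIB3 at −0.36 were called beside PHGDH and PSAT1. With a log2 fold change of at least 1 required, 0 of the 10 were called against 5.39% of all genes. Without con replicate 2 the count fell from 5 to 2 and without TGFB replicate 2 to 3.

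In transfected cells, in SiNAT10_TGFB against SiNAT10, ATF3 rose by 0.32 (SE 0.071, edgeR adjusted p = 0.0034) and DDIT4 by 0.48 (SE 0.13, edgeR adjusted p = 0.021), 2 of 10 higher and 0 lower where 11.1% of all genes were called, 5.92% higher and 5.15% lower. The median was −0.01 over the 10 genes and 0 over all genes. At an unadjusted p under 0.05, DDIT3 was the single gene lower (−0.22), and neither DESeq2 nor limma called any lower. DDIT4 lost its call without SiNAT10 replicate 2 (adjusted p = 0.0625) or 3 (adjusted p = 0.0973), or without SiNAT10_TGFB replicate 2 (adjusted p = 0.0695) or 3 (adjusted p = 0.106). With a log2 fold change of at least 1 required, 0 were called against 2.2% of all genes. Scaling to library size alone gave 2 higher and 1 lower, DDIT3 being called at −0.28, and so did removal of the GC trend, with PHGDH called at −0.17.

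Whether the response to siRNA differed with TGF-β1 was tested by the interaction, the log2 fold change of SiNAT10_TGFB against TGFB minus that of SiNAT10 against con. None of the 10 genes was called by edgeR, where 3.85% of all genes were, 1.94% higher and 1.91% lower. With a log2 fold change of at least 1 required, 0.884% of all genes were called. DESeq2 and limma also called 0 of the 10, and 1 gene, SHMT2, had an unadjusted p under 0.05. The interaction was −0.21 for SHMT2 (95% interval −0.38 to −0.05, edgeR adjusted p = 0.167), and it was called when the GC trend was removed (−0.21, adjusted p = 0.0416). The intervals were −0.18 to 0.26 for ATF3, −0.27 to 0.32 for DDIT3 and −0.24 to 0.06 for ATF4, and widest for DDIT4 (−0.2 to 0.6), CHAC1 (−0.54 to 0.21) and ASNS (−0.62 to 1.71). The median interaction was 0.06 over the 10 genes and 0 over all genes. The comparisons with con share the con libraries, and each is given on its own.

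The wider pathway was described with 7 lists of other genes, none tested as a set. Of all genes, 26.4% were called higher and 26.4% lower in SiNAT10 against con, and 26.3% and 26.8% in SiNAT10_TGFB against TGFB. The shares were 11.9% and 12.2% in TGFB against con, and 5.92% and 5.15% in SiNAT10_TGFB against SiNAT10. List counts under alternatives have no such background here. The first list holds the 17 genes of the eIF2 switch itself: the kinases, eIF2, its exchange factor eIF2B and the phosphatase that reverses the mark. In SiNAT10 against con 12 rose and 2 fell (median 0.29), and in SiNAT10_TGFB against TGFB 11 rose and 0 fell (median 0.29, with 0 lower at an unadjusted p under 0.05 and by DESeq2 and limma). Removing the GC trend gave 11 and 4, and 11 and 3, and scaling to library size alone 13 and 0 in both. PPP1R15A, the stress-induced subunit GADD34 that directs the phosphatase to eIF2, stood at 169, 167 and 170.2 CPM in con, 105, 104 and 96.7 in TGFB, 481, 484 and 449 in SiNAT10 and 436, 462 and 396 in SiNAT10_TGFB. It rose by 1.48 (SE 0.061) with siRNA alone and by 2.08 (SE 0.063) with siRNA under TGF-β1, fell by 0.73 (SE 0.061) in TGFB against con, and had a called interaction of 0.6 (SE 0.085, edgeR adjusted p = 0.000102). Its constitutive counterpart PPP1R15B rose by 1.05 (SE 0.072) and EIF2B5, the catalytic subunit of eIF2B, by 0.47 (SE 0.061) in SiNAT10_TGFB against TGFB. The 2 that fell in SiNAT10 against con were kinases, EIF2AK3 (PERK, which senses stress of the endoplasmic reticulum, −0.29) and EIF2AK2 (PKR, which senses double-stranded RNA, −0.21), both named after their values were seen. In TGFB against con, PPP1R15A, EIF2AK2 (−0.34, SE 0.07) and, outside the naming rule, EIF2AK4 (GCN2, which senses uncharged tRNA, −0.23) fell and 0 rose. At an unadjusted p under 0.05, 1 rose, DESeq2 called 0 and limma 1 higher, and with the GC trend removed 4 rose and 3 fell.

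Of 14 genes for the cytosolic tRNA synthetases reported as ATF4 targets, with the tRNA exporter XPOT, 10 rose and 1 fell in both siRNA comparisons (medians 0.33 and 0.3). SARS rose by 0.56 (SE 0.059) and AARS by 0.52 (SE 0.055) in SiNAT10_TGFB against TGFB, and VARS was the 1 that fell, by 0.95 (SE 0.086). Of 7 synthetases outside that list, 3 rose and 1 fell in both (medians 0.14 and 0.07). That is 4 of 7 called in each, where 52.8% and 53.1% of all genes were. In SiNAT10_TGFB against TGFB they were FARSB (0.35, SE 0.07), RARS (0.29, SE 0.064), DARS (0.31) and QARS (−0.46, SE 0.061), and the same 4 genes in SiNAT10 against con. With library size alone as the scale, 6 of these 7 rose in SiNAT10 against con and 5 in SiNAT10_TGFB against TGFB. TGF-β1 alone raised 7 of the 14, TARS by 0.35 (SE 0.05) and YARS by 0.24 (SE 0.06), and lowered 0, but 1 rose and 2 fell with library size alone as the scale and 4 rose without the filter on low counts. At an unadjusted p under 0.05, and by DESeq2 and limma, 0 were lower. Of the 7 others, HARS rose by 0.22 (SE 0.053) in TGFB against con, 0 fell, also at an unadjusted p under 0.05 and by DESeq2 and limma, and KARS at 0.15 was not called (adjusted p = 0.0512). HARS and YARS lost their calls with library size alone as the scale.

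The 9 amino acid transporters tested, of 11 listed, split. In SiNAT10 against con 3 rose and 5 fell (median −0.25), and in SiNAT10_TGFB against TGFB 4 rose and 5 fell (median −0.28). SLC7A5, the light chain that carries large neutral amino acids, stood at 193, 219.5 and 204 CPM in con and 39.4, 33.9 and 28.0 CPM in SiNAT10, and it fell by 2.61 (SE 0.091). SLC3A2, the heavy chain that SLC7A5 and SLC7A11 pair with, rose by 1.66 (SE 0.061) in that comparison. In SiNAT10_TGFB against TGFB, SLC7A5 fell by 3.04 (SE 0.092), SLC3A2 rose by 1.34 (SE 0.061) and SLC7A1, which imports arginine and lysine, fell by 1.38 (SE 0.051). The 2 chains of this transporter thus changed in opposite directions in both comparisons. Both times SLC38A1 and SLC7A11 were also higher and SLC1A4, SLC1A5 and SLC43A1 also lower, and SLC38A2 was higher in SiNAT10_TGFB against TGFB alone. The interaction was called for 4 of the 9, where 3.85% of all genes were called. It was higher for SLC38A2 (0.46) and lower for SLC7A5 (−0.44), SLC7A1 (−0.37) and SLC3A2 (−0.33). Limma called 0 higher and 1 lower. In TGFB against con 4 rose (SLC7A1 by 0.55, SE 0.051, with SLC7A5, SLC3A2 and SLC1A5) and 2 fell (SLC7A11, the cystine importer, by 0.9, SE 0.11, with SLC38A2). That split was 2 higher and 3 lower with library size alone as the scale.

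Among 9 further enzymes of serine, proline and one-carbon metabolism, 2 rose and 4 fell in SiNAT10 against con (median −0.08) and 1 rose and 4 fell in SiNAT10_TGFB against TGFB (median −0.02). Of the mitochondrial folate enzymes, MTHFD1L fell by 1.06 (SE 0.068) in the latter comparison and MTHFD2, an ATF4 target, rose by 0.23 (SE 0.073), a rise not called once the GC trend was removed, when 0 rose and 4 fell. The cytosolic enzyme MTHFD1 fell by 0.47 (SE 0.051) and the proline enzyme PYCR1 by 0.76 (SE 0.089), and ALDH1L2 also fell. The same 4 genes fell in SiNAT10 against con, where MTHFD2 and ALDH18A1 rose. In TGFB against con 5 rose and 0 fell, with MTHFD1L at 0.46 (SE 0.066), MTHFD2 at 0.38 (SE 0.074), and ALDH1L2, PYCR1 and ALDH18A1 also higher. There 1 was lower at an unadjusted p under 0.05, DESeq2 and limma called 0 lower, and library size alone gave 3 higher and 2 lower.

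Of 20 other reported targets of ATF4 or CHOP, 18 were tested, and 9 rose and 4 fell in SiNAT10 against con (median 0.16) against 9 and 6 in SiNAT10_TGFB against TGFB (median 0.15). GDF15, a stress cytokine that p53 also induces, stood at 0.697, 0.267 and 0.375 CPM in con, 0.154, 0.280 and 0.405 in TGFB, 7.69, 7.28 and 6.87 in SiNAT10 and 5.66, 5.18 and 4.60 in SiNAT10_TGFB, and rose by 3.99 (SE 0.27) and 4.2 (SE 0.3). SESN2, another inhibitor of mTORC1 that p53 also induces, rose by 1.22 (SE 0.099) and 1.33 (SE 0.099), and CEBPB, a dimer partner of ATF4 and CHOP, by 1.24 (SE 0.077) and 1.06 (SE 0.077). JDP2, CBS, EIF4EBP1 and STC2 fell in both comparisons, and ERO1A and PCK2 in SiNAT10_TGFB against TGFB. In TGFB against con 3 rose (VEGFA, which hypoxia also induces, by 1.71, SE 0.076, with CBS and EIF4EBP1) and 2 fell (BCL2L11 by 0.5, SE 0.10, with ATF5). That count was 4 and 4 with the GC trend removed and 2 and 4 with library size alone as the scale.

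The 18 chaperone and degradation genes of the endoplasmic reticulum, controlled mainly by the IRE1/XBP1 and ATF6 arms of the unfolded protein response, did not share one direction with siRNA. In SiNAT10 against con 7 rose and 5 fell (median −0.05), and in SiNAT10_TGFB against TGFB 3 rose and 7 fell (median −0.09). DNAJB9 rose by 1.53 (SE 0.13) and HYOU1 and CRELD2 fell by 0.9 (SE 0.052) and 0.81 (SE 0.073) in the latter, where HERPUD1 and XBP1 also rose. In the former HYOU1, CRELD2, HSP90B1, CALR and PDIA4 fell. With the GC trend removed 7 rose and 8 fell in SiNAT10 against con, and with library size alone as the scale 7 rose and 6 fell in SiNAT10_TGFB against TGFB. TGF-β1 alone raised 13 of the 18 and lowered 0 (median 0.31), with HERPUD1 at 0.8 (SE 0.071) and HYOU1 at 0.58 (SE 0.052), and in SiNAT10_TGFB against SiNAT10 11 rose and 0 fell (median 0.2). In both, 0 were lower at an unadjusted p under 0.05 and by DESeq2 and limma. With library size alone as the scale, 9 and 5 rose.

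**Figure D4:**
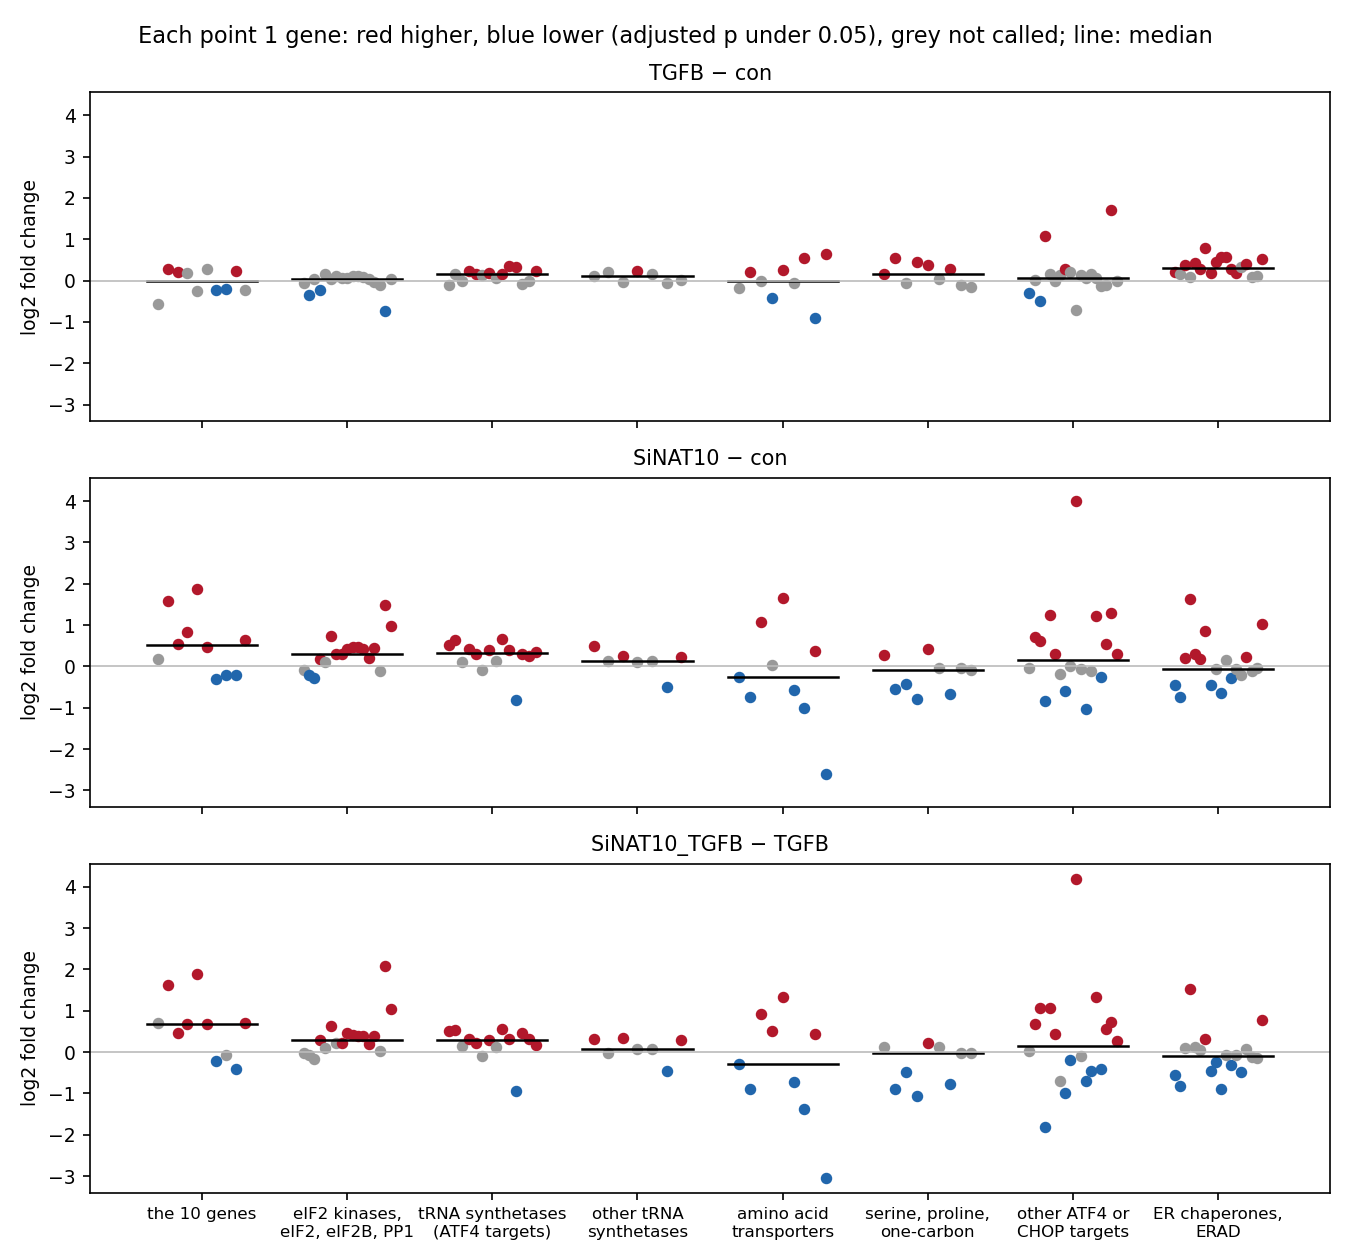
Log2 fold change of every tested gene of the 7 lists beside the 10 genes, 1 panel per comparison, red where higher, blue where lower and grey where not called at an edgeR adjusted p under 0.05, with a line at each median. In the lower 2 panels the medians of the 10 genes, at 0.52 and 0.68, lie above those of the lists, which run from −0.25 to 0.33 and from −0.28 to 0.3.

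Finally, the genes whose 4 group means followed those of the 10 most closely were taken from 13034 genes with a mean of at least 50 counts, by the root mean square (RMS) difference of centred log2 CPM. For ATF4 these were GABARAPL2 (RMS 0.0134), BTF3 (0.0174) and ZBTB1 (0.0183), and 724 genes lay within an RMS of 0.1. For TRIB3 it was EAPP (0.00833, 460 genes within 0.1), for CHAC1 CDC37L1 (0.0113, 325 genes) and for DDIT4 SMG1P5 (0.0497, 42 genes), a pseudogene whose reads may be shared with its parent gene. DDIT3 and ATF3 had few neighbours, SPRY4 being nearest to DDIT3 (0.0463, 6 genes) and DCAF4L1 nearest to ATF3 (0.0384, 14 genes). The enzymes PHGDH and SHMT2 were nearest to PDE7A (0.00725) and MALT1 (0.00983), with 941 and 822 genes within 0.1, and 1233 genes lay within 0.1 of PSAT1. The pattern of the ASNS count was nearest to PARP9 (0.0324, 50 genes). It rests on 11 to 42 counts per library and is not read as a pattern of ASNS mRNA. Each likeness rests on 4 group means and is a description. The RMS was not scaled by the size of a gene's changes, so the number of genes within 0.1 also depends on that size.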

How the data were processed

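Gene counts of 58735 genes in 12 libraries were deposited by the authors, with FPKM values beside them; fastp, HISAT2 2.2.1 and the build hg38 are named in the submitters' processing notes. The sources used here do not give the counter, its annotation or its strand setting. The counts entered edgeR 4.0.16 (R 4.3.3): filterByExpr kept 18560 genes and 99.88 to 99.93% of the counts, TMM factors ran from 0.922 to 1.069, and 1 quasi-likelihood fit of the 4 groups gave 4 pairwise comparisons and the interaction, adjusted by Benjamini-Hochberg over all genes, with calls at an adjusted p under 0.05. Intervals are 95% intervals of the fitted log2 fold change. FPKM deposited by the authors served for levels between genes and for an alternative with limma 3.58.1 on log2(FPKM + 1). A value of 3 counts, the floor used for depth, equals 0.0871 to 0.115 CPM. Further alternatives were DESeq2 1.42.0, other scalings, no filter, only the libraries of the 2 groups, a fold threshold, a replicate block, omission of each library, and removal of each library's GC trend (spline of 5 degrees of freedom, 18552 genes). The fit was tested on simulated data.

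The genes and lists were chosen with earlier results of these data known. List members were named by smallest p (3 per list in SiNAT10_TGFB against TGFB, 2 in TGFB against con, with a mean of at least 50 counts), and values of a named gene in other comparisons were added. List genes named beyond this rule, where a count was 5 or fewer, were chosen after their values were seen. Sequences are from RefSeq and exon overlaps from GENCODE release 29, in which all 58735 genes have the same start and end as in the file. The gene nearest in pattern to PSAT1 is not reported here.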

Additional observations from a re-analysis of the deposited data

How the results depend on the processing

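Over 1040 values of the 10 genes recomputed under alternatives other than the fold threshold, 504 belonged to results called here: 478 kept their direction and call, 24 lost the call and 2 changed sign. Of 536 values of results not called here, 14 gained a call and 18 changed sign. ATF4, ATF3, DDIT3, TRIB3, CHAC1 and DDIT4 kept their call in both siRNA comparisons under all 21 alternatives each, DDIT3 between 1.72 and 2.02 and ATF4 between 0.44 and 0.79.

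Requiring a log2 fold change of at least 1 left 2 genes called in each siRNA comparison and 0 in both TGF-β1 comparisons. Limma on FPKM called 1 gene in SiNAT10_TGFB against SiNAT10, and removing the GC trend called 1 interaction. Leaving out 1 library at a time gave 2 to 6 calls in TGFB against con, 8 to 9 in SiNAT10 against con, 7 to 9 in SiNAT10_TGFB against TGFB, 1 to 2 in SiNAT10_TGFB against SiNAT10 and 0 for the interaction. The 2 sign changes of called results were SHMT2 in SiNAT10 against con at 0.05, with the GC trend removed and with the GC trend and the replicate block together. Uncalled results that changed sign were SHMT2 in SiNAT10_TGFB against SiNAT10 (−0.02 under both of those, −0.05 with library size alone, 0 to 0.05 with a library left out), CHAC1 there (−0.04 with library size alone, −0.08 to 0.13 with a library left out), PSAT1 in SiNAT10_TGFB against TGFB (0.06 with library size alone), and, with a library left out, ASNS in SiNAT10 against con (−0.04 to 0.27) and in SiNAT10_TGFB against SiNAT10 (−0.13 to 0.18), and the interactions of DDIT3 (−0.04 to 0.08) and TRIB3 (−0.02 to 0.18). The cause was not tested.

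Same-numbered replicates did not deviate together (correlations of −0.36 to 0.25 over 18 pairs, against −0.26 to 0.34 over 36 pairs of different number). A fit with the replicate number as a block called 4, 9, 8, 2 and 0 of the 10 genes in the order of the text's 4 comparisons and interaction, and differed in PSAT1 in TGFB against con (−0.21, adjusted p = 0.0608).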
